A study of Caenorhabditis elegans with 4 samples.

Results

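PUF proteins bind short sequence elements in the 3′-UTRs of mRNAs and, with partner proteins, repress or store these mRNAs. They are named after Drosophila Pumilio and C. elegans FBF, and in the worm most of them act in the germline, where they keep stem cells dividing, switch germ cells from sperm to oocytes and hold maternal mRNAs silent during oogenesis. The mRNAs of the 10 PUF-family genes fbf-1, fbf-2, puf-3, puf-5, puf-6, puf-7, puf-8, puf-9, puf-11 and puf-12 are described here as they were recovered with LIN-41, a TRIM-NHL RNA-binding protein that is itself needed for oocyte growth. The genes were taken by name, and all 10 were found by their WormBase identifiers among the 20392 genes of the tables. No other gene of the tables carried a puf or fbf symbol.

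In RIP-seq, the RNA that co-precipitates with a tagged protein (IP) is sequenced beside the RNA of its lysate (input). All 4 libraries came from whole young adults of lab strain 1587 (RAF1587), which carries the lin-41(rrr3) mutation on chromosome I and, on chromosome II, the single-copy rescuing transgene rrrSi367, in which the lin-41 promoter and the full-length lin-41 3′-UTR drive LIN-41 fused to FLAG, GFP and a TEV site, with unc-119(+) as marker. The 2 biological replicates come from worm cultures of separate weeks, fed E. coli OP50, and from each lysate an input library and an IP library from anti-FLAG beads were made. Input and IP thus share every allele, and libraries from worms without the tagged protein were not analysed here, so RNA bound by LIN-41 cannot be told apart from RNA held by the beads or the tags.

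The libraries held between 33455857 and 40743247 counts. Pairs of values are given for replicates 1 and 2 in that order. LIN-41's own mRNA went from 677 and 543 input counts to 12953 and 8588 IP counts. The counts per gene do not separate transgene from endogenous lin-41. In the inputs the summed level of 4 oocyte markers (rme-2, oma-1, oma-2, spn-4) was 1872 and 2039 RPKM (counts divided by gene length and library size), compared with 529 and 426 RPKM for 4 intestine markers and 5.35 and 2.84 RPKM for 3 sperm markers, of which spe-38 had no count in the IP of replicate 2. Single genes led these sums. Of the oocyte sums spn-4 alone gave 1073 and 1189 RPKM, and of the intestine sums act-5 gave 262 and 249 and vit-6 gave 261 and 171 RPKM. All 4 oocyte markers were enriched and all 4 intestine markers were depleted in the IP by the test described next. Of all tested genes, 32.9% were enriched and 35.4% depleted. With library size only, the 4 intestine markers stayed depleted but only 2 oocyte markers were enriched. The shares of all tested genes were then 66.5% and 11.9%. Of 4 germline markers, pgl-1 and gld-1 were enriched, glh-1 was depleted and htp-3 was neither, with a median log2 fold change of 0.24. With library size only, 2 germline markers were depleted and 2 were neither. Of 4 muscle markers, unc-54 was enriched (log2 fold change 0.32) and 3 were depleted, and with library size only all 4 were depleted. Of 4 neuron markers, rab-3 was enriched (log2 fold change 2.49), 2 were depleted and 1 was neither. With library size only, 1 neuron marker was enriched and 3 were depleted. The part of these markers in the results below was not tested. Since fewer cells and less RNA per cell look alike in whole-worm lysates, the levels below are averages over all tissues.

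Each gene is followed by its levels in RPKM, which allow comparison between genes of different length, and by 2 measures of recovery. The log2 IP enrichment subtracts each input from the IP made of the same lysate on the log2 scale, after scaling to library size, a pseudocount of 8 and quantile normalization. The log2 fold change comes from the quasi-likelihood test of edgeR, applied to the counts with TMM scaling and the replicate as a block, with p-values adjusted over all 14029 genes tested. Both measure an mRNA against the rest of its library, not an absolute amount bound. By this test 8 of the 10 PUF mRNAs were enriched in the IP, compared with 32.9% of all tested genes, and 2 were depleted, compared with 35.4% of all tested genes. Their median log2 fold change was 1.09, compared with -0.14 for all tested genes, and their median log2 IP enrichment was 0.21, compared with -0.11.

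The choice between TMM and library size scaling moved all genes nearly together. Over all tested genes the log2 fold change had a median of -0.14 under TMM and of -1.07 when only library size was used, where 11.9% of genes were enriched and 66.5% depleted. With library size only, puf-11, puf-3 and fbf-1 stayed enriched, fbf-2 and puf-12 stayed depleted, and puf-5, puf-6, puf-7, puf-8 and puf-9 passed in neither direction. Set against the median of all tested genes, the 8 enriched mRNAs lay 0.81 to 3.67 log2 units above it with TMM and 0.80 to 3.67 above it with library size only. After quantile normalization they lay between 0.02 (puf-5) and 2.67 (puf-11) above the median. Unlike TMM, quantile normalization moved the members unequally. From library size only to quantile normalization, the mean log2 IP enrichment went from 0.46 to 1.48 for fbf-1 and from -2.22 to -1.04 for fbf-2. For puf-8 it went from 0.14 to 0.22, for puf-11 from 2.61 to 2.56 and for puf-12 from -2.10 to -1.82.

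**Figure D1:**
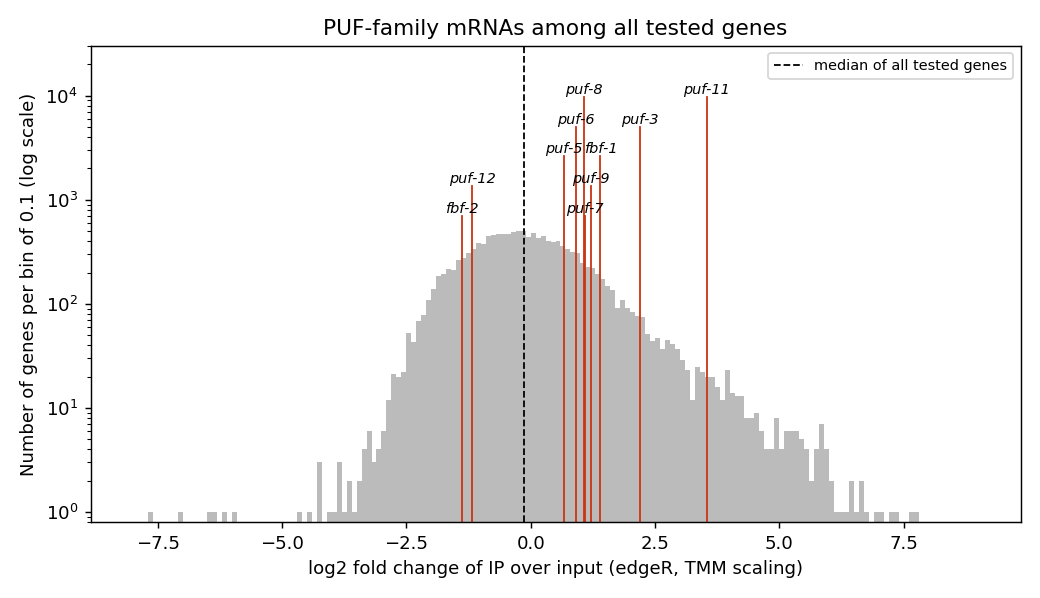
Number of tested genes (log scale, bins of 0.1) against the log2 fold change of IP over input from edgeR with TMM scaling. Red lines mark the 10 PUF-family genes, with puf-11 farthest right at 3.54, puf-12 and fbf-2 to the left of the dashed median of all tested genes at -0.14, and the other genes between 0.67 and 2.19.

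In the inputs the 3 most abundant PUF mRNAs were puf-5, puf-3 and puf-11, all of genes that act in oogenesis. The mRNA of puf-5 led with 411 and 439 RPKM in the inputs of replicates 1 and 2, above puf-3 with 317 and 352 RPKM and puf-11 with 280 and 326 RPKM, whose ranges overlapped. They were followed by puf-7 at a mean of 147 ± 11.6 RPKM, puf-8 at 110 ± 4.72 RPKM, puf-6 at 88.2 ± 6.04 RPKM and puf-12 at 86.6 ± 1.73 RPKM (SD, n = 2), with overlapping ranges for puf-6 and puf-12 only. The lowest were puf-9 with 15.9 and 17.3 RPKM, fbf-2 at 4.50 ± 0.233 RPKM and fbf-1 at 4.35 ± 0.629 RPKM, and fbf-1 and fbf-2 overlapped. The median tested gene had 8.35 RPKM in the inputs. In the IPs the order changed at the top and at the bottom. The mRNA of puf-11 moved from the third place to the top, and fbf-1 moved above fbf-2.

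**Figure D2:**
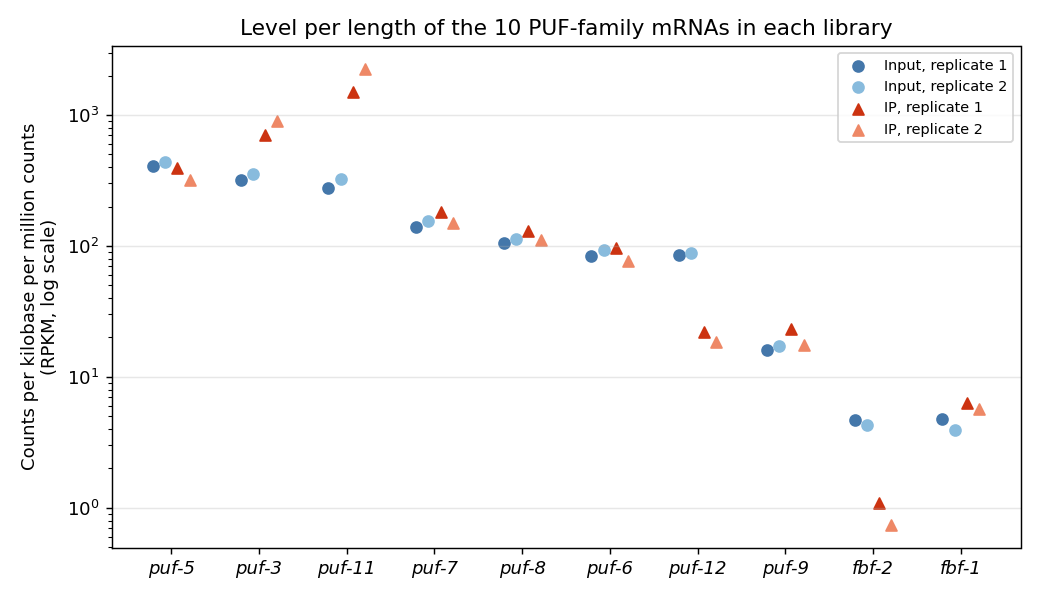
Level of each PUF-family mRNA in RPKM (log scale), with 1 point per library (circles for inputs, triangles for IPs). The IP points of puf-11 (1495 and 2257 RPKM) and puf-3 lie above their inputs and those of puf-12 and fbf-2 lie below, whereas inputs and IPs of puf-5, puf-6, puf-7, puf-8 and puf-9 lie close together on this scale.

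The paralogs PUF-3 and PUF-11 act in oogenesis, and their mRNAs had the highest edgeR log2 fold changes of the family. By log2 IP enrichment puf-11 was also highest, whereas puf-3 and fbf-1 overlapped. Both genes lie on chromosome IV of WBcel235, on opposite strands, with 3 annotated exons each and coding sequences of 1506 and 1515 bases. The gene puf-11 (WBGene00022257) rose from 16136 and 21847 input counts to 101720 and 158618 IP counts. This is 280 and 326 RPKM compared with 1495 and 2257 RPKM, without overlap. The log2 IP enrichment of puf-11 was 2.57 and 2.55 in the replicates, higher than in 97.5% of the tested genes, and its log2 fold change was 3.54 (standard error 0.21, edgeR adjusted p = 3.46e-64), an 11.6-fold increase. The increase was 5.90-fold after quantile normalization and 6.09-fold with library size only (log2 fold change 2.61). The small difference between replicates in log2 IP enrichment holds after quantile normalization only, since with TMM factors the log2 IP enrichments were 3.29 and 3.79.

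The gene puf-3 (WBGene00004239) rose from 18479 and 23885 input counts to 48586 and 64020 IP counts, where its level was 707 and 901 RPKM. Its log2 IP enrichment was 1.39 and 1.59 and its log2 fold change 2.19 (standard error 0.17, edgeR adjusted p = 3.66e-38), a 4.56-fold increase. The increase was 2.82-fold after quantile normalization and 2.39-fold with library size only (log2 fold change 1.26). Both IPs were above both inputs. In WBcel235 puf-3 lies within afmd-2, which is on the opposite strand. The gene afmd-2 had between 205 and 517 counts in the libraries, and its log2 IP enrichments were -0.30 and -0.18. Whether reads of afmd-2 entered the counts of puf-3 was not tested.

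The ratio of paralog counts within a library is free of any scaling between libraries. In the inputs puf-11 had 0.873 and 0.915 counts per count of puf-3, with 95% intervals (Clopper-Pearson) of 0.855 to 0.892 and 0.898 to 0.932. In the IPs the ratio was 2.09 and 2.48, with intervals of 2.07 to 2.12 and 2.455 to 2.501. The ratio was thus 2.40-fold and 2.71-fold higher in the IP than in the input of the same replicate, a mean log2 change of 1.35 ± 0.12 (SD, n = 2), so that puf-11 was recovered more than puf-3 by more than the difference between replicates. An exact permutation test of 2 against 2 libraries (two-sided), which leaves out the pairing by lysate, gave p = 0.333. This is the smallest p it can give, so the test cannot decide on the change. Intervals of this kind cover counting error only, and the sources used here do not say to which paralog a read matching both was assigned.

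The FBF proteins are near-identical and work together to keep germline stem cells in mitosis and to repress fem-3 for the switch from sperm to oocytes. Their genes lie on the same strand of chromosome II with 1 protein-coding gene between them, and each has 8 annotated exons, with coding sequences of 1842 and 1896 bases and 3′-UTRs of 287 and 279 bases. Yet their mRNAs went opposite ways in the IP. The gene fbf-1 (WBGene00001401) went from 356 and 337 input counts to 556 and 512 IP counts. Its paralog fbf-2 (WBGene00001402) started from similar input counts of 387 and 418 and had only 106 and 75 IP counts. Inputs and IPs did not overlap for either gene, with fbf-1 higher and fbf-2 lower in both IPs.

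The log2 IP enrichment of fbf-1 was 1.36 and 1.61 in the replicates, with a log2 fold change of 1.40 (standard error 0.14, edgeR adjusted p = 1.16e-23). That of fbf-2 was -0.91 and -1.16, with a log2 fold change of -1.38 (standard error 0.18, edgeR adjusted p = 4.94e-14). In terms of fold, fbf-1 was 2.65-fold higher and fbf-2 2.61-fold lower with TMM scaling, and with library size only the log2 fold changes were 0.47 and -2.31, a weaker rise and a larger fall.

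The ratio of both genes within a library again needs no scaling, but how reads matching both genes were assigned is not given here either. It was 0.920 and 0.806 counts of fbf-1 per count of fbf-2 in the inputs, with 95% intervals (Clopper-Pearson) of 0.794 to 1.07 and 0.696 to 0.933. In the IPs it was 5.25 and 6.83, with intervals of 4.25 to 6.52 and 5.35 to 8.82. The ratio rose 5.70-fold in replicate 1 and 8.47-fold in replicate 2, a mean log2 change of 2.80 ± 0.40 (SD, n = 2), which is larger than the difference between replicates (exact permutation test, two-sided, p = 0.333, the smallest that 2 against 2 libraries allow). When the counts of both genes were summed, the pair had a log2 fold change of 0.52 (edgeR adjusted p = 4.69e-05). The gene H12I13.6 overlaps fbf-1 on the opposite strand by 15 bases in WBcel235, with at most 23 counts in any library.

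**Figure D3:**
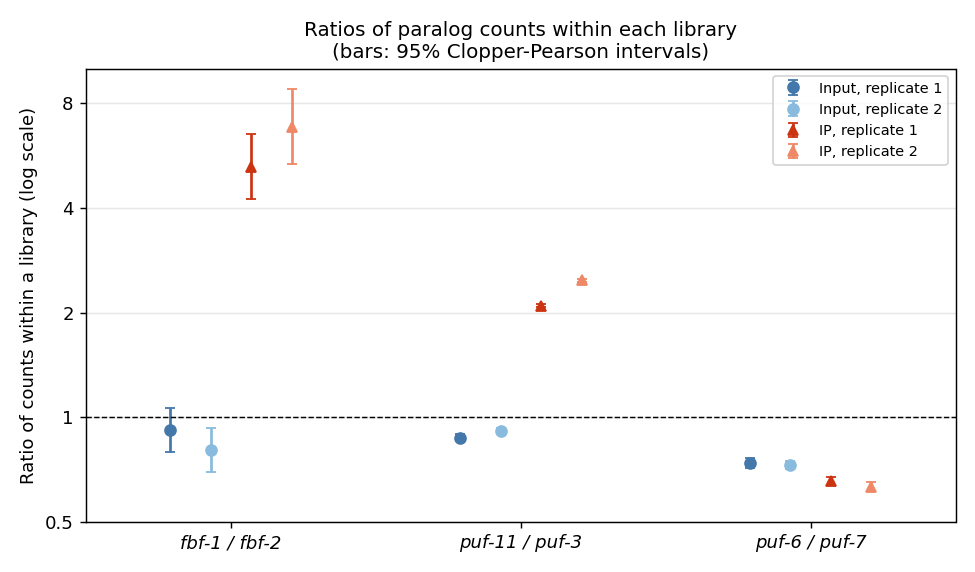
Ratio of counts of 2 paralogs within each library (log scale), with 1 point per library and 95% Clopper-Pearson intervals as bars. Inputs lie below 1 for all 3 pairs, the IPs lie at 5.25 and 6.83 for fbf-1 over fbf-2 and at 2.09 and 2.48 for puf-11 over puf-3, and puf-6 over puf-7 stays between 0.630 and 0.739 in the 4 libraries.

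PUF-5, PUF-6 and PUF-7 act together in late oogenesis, where their loss disturbs oocyte formation. The genes puf-6 (WBGene00004242, chromosome II) and puf-7 (WBGene00004243, chromosome IV) share a coding length of 1455 bases, a 5′-UTR of 35 bases and 4 exons in the annotation. The input counts of puf-6 were 6434 and 8240, beside IP counts of 8778 and 7178. The input counts of puf-7 were 8710 and 11321, beside IP counts of 13402 and 11390. As RPKM, the values of inputs and IPs overlapped for both genes. With TMM scaling puf-6 rose by 0.91 (standard error 0.11, edgeR adjusted p = 9.94e-15) and puf-7 by 1.10 (standard error 0.12, edgeR adjusted p = 6.87e-18) on the log2 scale. The mean log2 IP enrichment after quantile normalization was only 0.06 ± 0.24 for puf-6 and 0.20 ± 0.19 for puf-7 (SD, n = 2), and with library size only neither passed (log2 fold changes of -0.028 and 0.16, edgeR adjusted p = 0.893 and 0.414).

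In contrast to the other pairs, puf-6 and puf-7 kept nearly the same ratio. For this pair too the assignment of reads matching both genes is unknown, and its effect on the ratio was not tested. The input ratios were 0.739 and 0.728 and the IP ratios 0.655 and 0.630, a change of -0.19 ± 0.02 on the log2 scale (SD, n = 2). The intervals of inputs and IPs did not overlap (0.707 to 0.763 over both inputs and 0.612 to 0.673 over both IPs, Clopper-Pearson), but the change was smaller than in the other pairs. The exact permutation p was again 0.333.

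The most abundant PUF mRNA of the inputs, puf-5 (WBGene00004241, chromosome II), gave 27684 and 34424 input counts, beside 31468 and 25988 IP counts. The level in the IP of replicate 1 was 396 RPKM and that of replicate 2 was 317 RPKM, both lower than the inputs (411 and 439 RPKM). Its log2 IP enrichments of 0.13 and -0.32 had opposite signs in the replicates. The edgeR log2 fold change of 0.67 (standard error 0.15, edgeR adjusted p = 1.50e-05) was the smallest of the 8 enriched members. Its call was lost with library size only, where the value was -0.26 (edgeR adjusted p = 0.214). It was also lost without the input of replicate 1, in a fit that had no replicate block either, where the value was 0.58. The 4 oocyte markers had log2 fold changes of 1.10 (rme-2), 1.03 (oma-1), 2.35 (oma-2) and 6.48 (spn-4).

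PUF-8 acts in germ cell proliferation and, with FBF-1, in the switch from sperm to oocytes. Its mRNA (puf-8, WBGene00004244, chromosome II) gave 6433 and 7948 input counts and 9299 and 8252 IP counts. Its levels overlapped, at 106 and 113 RPKM for the inputs compared with 130 and 112 RPKM for the IPs. After quantile normalization both IPs were above both inputs, with log2 IP enrichments of 0.30 and 0.15, and its log2 fold change was 1.07 (standard error 0.12, edgeR adjusted p = 9.36e-20). With library size only it was 0.14 (edgeR adjusted p = 0.470).

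PUF-9 acts in the soma, where it is needed for hypodermal development and represses hbl-1. Its gene (WBGene00004245, chromosome X) has the longest 3′-UTR of the family, with 1185 bases. Input counts of puf-9 were 1770 and 2241, and IP counts were 3058 and 2385. The log2 IP enrichment of puf-9 was 0.94 and 0.58, above 81.2% of the tested genes, and its log2 fold change was 1.22 (standard error 0.10, edgeR adjusted p = 1.09e-31). With library size only the value was 0.29 (edgeR adjusted p = 0.108). Of 4 hypodermis markers, elt-3 was depleted in the IP (beside 35.4% of all tested genes) and dpy-7, col-19 and rol-6 passed in neither direction. Counts were low for dpy-7 (at most 46 in any library) and rol-6 (at most 27), with standard errors of 0.42 and 0.48. With library size only, 3 of the 4 were depleted, beside 66.5% of all tested genes.

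PUF-12 is the worm counterpart of human PUM3, a nucleolar protein, and differs in this from the cytoplasmic regulators above. Its mRNA (WBGene00014165, chromosome II) was the most depleted of the family after quantile normalization. It fell from 7166 and 8569 input counts to 2176 and 1884 IP counts, or 85.3 and 87.8 RPKM compared with 22.0 and 18.4 RPKM. Both IPs were far below both inputs. The log2 IP enrichments of -1.79 and -1.85 were higher than in only 3.36% of the tested genes, and the log2 fold change was -1.17 (standard error 0.11, edgeR adjusted p = 1.22e-27). The depletion kept its direction with library size only (-2.10). The neighbouring gene ZK945.4, which overlaps puf-12 by 91 bases on the opposite strand, had at most 461 counts and log2 IP enrichments of 1.41 and 0.72.

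**Figure D4:**
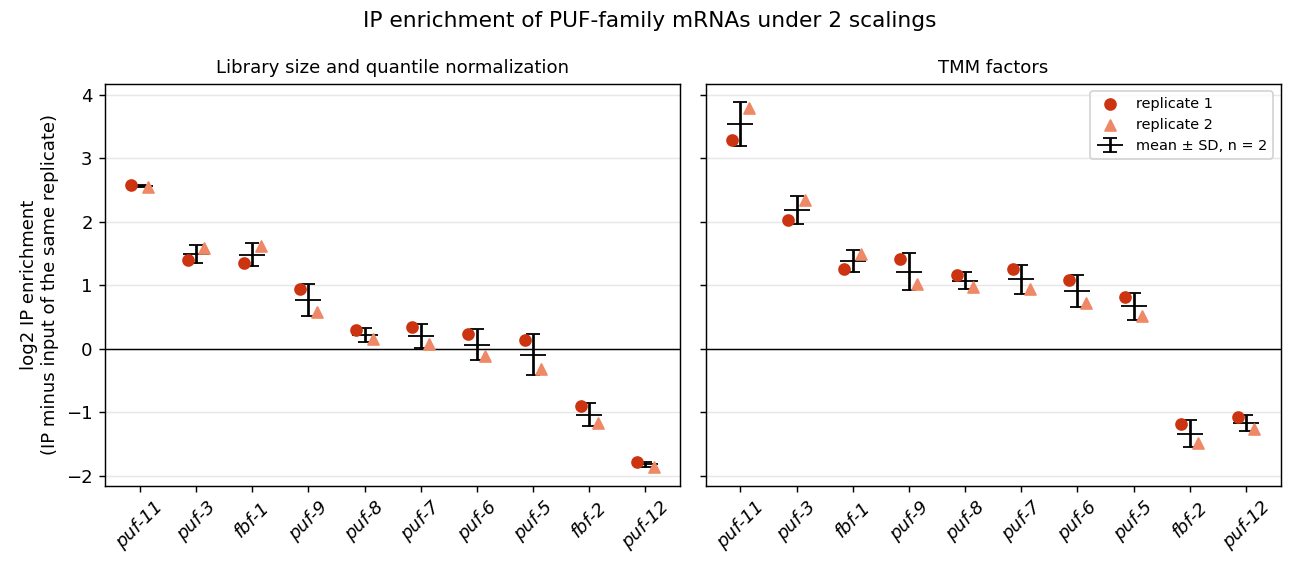
The log2 IP enrichment of each member (IP minus input, by replicate) after library size scaling with quantile normalization (left) and with TMM factors (right), with points for the replicates and bars for mean ± SD (n = 2). In both panels puf-11, puf-3 and fbf-1 are the highest and fbf-2 and puf-12 lie below 0, whereas puf-5 moves from -0.09 on the left to 0.67 on the right.

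By mean log2 IP enrichment the order was puf-11 (2.56 ± 0.02), puf-3 (1.49 ± 0.14), fbf-1 (1.48 ± 0.18), puf-9 (0.76 ± 0.25), puf-8 (0.22 ± 0.11), puf-7, puf-6, puf-5 (-0.09 ± 0.32), fbf-2 (-1.04 ± 0.18) and puf-12 (-1.82 ± 0.05; SD, n = 2). The replicate ranges of puf-3 and fbf-1 overlapped, as did those of neighbours from puf-8 to puf-5, and all other neighbours were apart. With TMM factors puf-3 at 2.19 was above fbf-1 at 1.38 without overlap, the neighbours from fbf-1 to puf-5 overlapped, and so did puf-12 and fbf-2. The replicates of a member differed by 0.03 to 0.45 log2 units after quantile normalization, with a median of 0.26. Over all tested genes the difference had a median of 0.20 and a 95th percentile of 0.92.

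As a family, the 10 mRNAs took 0.280% and 0.307% of all input counts and 0.556% and 0.688% of all IP counts. Of their summed RPKM, puf-11 held 19.3% and 20.5% before and 48.9% and 58.6% after the IP. The input shares of puf-3 were 21.9% and 22.1%, close to its IP shares of 23.1% and 23.4%. For puf-5 the shares were 28.4% and 27.6% of the input sum, beside 12.9% and 8.21% of the IP sum. For puf-12 they were 5.90% and 5.52%, beside 0.719% and 0.478%. The shares of fbf-1, fbf-2, puf-6, puf-7, puf-8 and puf-9 were smaller in the IPs too. For puf-7 they were 9.57% and 9.73%, beside 5.91% and 3.86%. Since the shares add up to a fixed sum, a smaller share need not mean depletion. As a result, puf-3 and puf-11 together made up 72.0% and 81.9% of the PUF mRNA recovered with LIN-41, compared with 41.2% and 42.6% in the lysates.

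**Figure D5:**
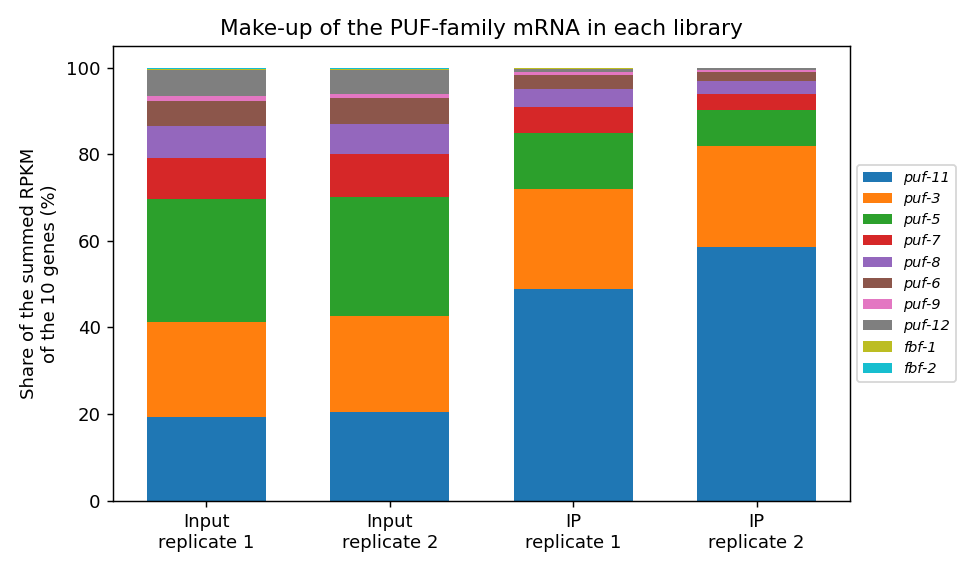
Share of each gene in the summed RPKM of the 10 PUF-family genes (in percent), with 1 stacked bar per library. The share of puf-11 is 19.3% and 20.5% of the input bars and 48.9% and 58.6% of the IP bars. All members other than puf-11 and puf-3 hold smaller shares in the IPs.

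All 10 genes have an annotated 3′-UTR longer than the median of 147 bases over 13139 tested coding genes, and they range from 188 bases in puf-11 to 1185 bases in puf-9. The most enriched and the most depleted member have nearly the same length, with 188 bases in puf-11 and 190 in puf-12. Across the 10 genes the Spearman rho between 3′-UTR length and mean log2 IP enrichment was -0.16, compared with 0.07 over those 13139 coding genes in the test that had a 3′-UTR length. For coding length rho was -0.35, compared with -0.0062 over 13598 genes. For the length of the gene model rho was -0.61, compared with -0.0041 over the 14029 tested genes. These are descriptions over 10 points from the same 4 libraries. By chromosome, 6 of the 10 genes lie on II, 3 on IV and 1 on X. Of all tested genes, 17.6% lie on II, 16.3% on IV and 13.9% on X. Both depleted members are among the 6 genes on II, but so are enriched members, and a link to the chromosome was not tested.

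Genes reported to act with PUF proteins in the germline were chosen as a list for context, which need not be complete. Of 12 such genes (gld-3, gls-1, nos-1, nos-2, nos-3, cpb-1, lst-1, sygl-1, dlc-1, gld-2, ccf-1 and mex-3), 10 were enriched, 1 was depleted and 1 was neither, beside 32.9% enriched and 35.4% depleted of all tested genes, with a median log2 fold change of 1.34. With library size only, 6 were enriched and 4 depleted, beside 11.9% and 66.5% of all tested genes. Highest were the Nanos genes nos-1 and nos-2, whose fly relative is the partner of Pumilio. The gene nos-1 rose from 1517 and 1918 input counts to 51601 and 62737 IP counts, a log2 fold change of 5.84 (standard error 0.19, edgeR adjusted p = 2.17e-195). The log2 fold change of nos-2 was 5.15 (standard error 0.19). Lowest were dlc-1, a dynein light chain that binds FBF-2, at -0.38 (edgeR adjusted p = 0.0129), and nos-3, the third Nanos gene and an FBF-1 partner, at -0.11 (edgeR adjusted p = 0.354). Hence both the PUF family and the Nanos genes held members with high values next to members that were depleted or passed in neither direction.

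Of 17 mRNAs known as PUF targets in C. elegans, 16 were enriched (beside 32.9% of all tested genes) and htp-2 was neither enriched nor depleted, with a median log2 fold change of 1.28. Here too library size mattered, since with library size only 6 were enriched and 3 depleted, beside 11.9% and 66.5% of all tested genes. The highest by mean log2 IP enrichment was fem-3 at 2.95 ± 0.09 (SD, n = 2), the sex determination gene whose 3′-UTR FBF was found to bind, which rose from 2577 and 3566 input counts to 20929 and 22045 IP counts (log2 fold change 3.61, standard error 0.14). By the same measure it was followed by fog-3, which promotes sperm fate, at 1.62 ± 0.68 (SD, n = 2), with only 21 and 43 input counts and 65 and 46 IP counts (log2 fold change 1.60, standard error 0.35, edgeR adjusted p = 9.75e-06). The lowest by log2 IP enrichment were mpk-1, the ERK kinase gene, with replicate values of -0.41 and -0.63, and htp-2, a meiotic axis gene, with -0.32 and -0.37. The edgeR log2 fold change of mpk-1 was 0.26 (edgeR adjusted p = 0.0260), so that its sign differed between both scalings.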

How the data were processed

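RIP-seq of tagged LIN-41 gave 4 stranded mRNA libraries from whole young adults, an input and an IP of 2 replicates. The authors quantified genes on assembly ce10 with WormBase WS220 gene models and deposited unnormalized read counts per gene together with gene model lengths. The aligner and counter used were not given in the sources used here. Log2 values deposited by the authors were scaled to library size, log2-transformed with a pseudocount of 8 and quantile-normalized. Repeating these steps on the deposited counts matched each of the 81568 deposited values to within 1e-06.

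Symbols were joined by WormBase identifier. Chromosomes, strands, exon numbers and lengths (longest transcript) came from Ensembl release 115 (WBcel235). No coordinates are printed because this assembly differs from ce10. The edgeR test (4.0.16, R 4.3.3) used TMM scaling, filterByExpr, a replicate block and a Benjamini-Hochberg threshold of 0.05. IP and input of a replicate come from the same lysate, and their replicate differences correlated across genes (r = 0.212). With the block, 1 residual degree of freedom remained and the spread was pooled over all genes. Standard errors were derived from the F statistic. Alternatives were DESeq2 1.42.0, no replicate block, RLE or library size scaling, other filters, summed paralogs, a pseudocount of 1 and each library or replicate left out. Fits with 1 library left out had no replicate block. Python 3.11.15, pandas 2.3.3, scipy 1.17.1 and matplotlib 3.10.9 were used elsewhere. The members, lists and tests were chosen with earlier results of these data known. Genes of the lists were named by rule, the 2 highest and 2 lowest of each list by mean log2 IP enrichment. Marker genes were named for context.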

Additional observations from a re-analysis of the deposited data

How the results depend on the processing

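With 2 replicates and a spread pooled over genes, adjusted p-values rest on the assumption that genes vary alike. In the fit with no replicate block 8 PUF genes were enriched and 2 depleted, with a log2 fold change of 0.67 for puf-5 (edgeR adjusted p = 0.00424), and no call of a PUF gene changed. Fits that left out 1 library at a time had no replicate block either. Their log2 fold changes for puf-5 were 0.58 to 0.78, and puf-5 lost its call without the input of replicate 1. Scaling mattered most. With library size only, 1670 genes were enriched and 9332 depleted, and 3 PUF genes were enriched. The log2 fold changes of puf-5 and puf-6 were then -0.26 and -0.028, and the mean log2 IP enrichment of puf-6 was -0.028. With TMM factors that of puf-5 was 0.67. DESeq2 gave 3236 depleted genes in place of 4960, and 8 enriched and 2 depleted PUF genes. With each replicate alone, the log2 IP enrichment was -0.32 to 0.13 for puf-5 and -0.11 to 0.24 for puf-6. With paralog pairs summed, 1 PUF feature was depleted, and the pair of fbf-1 and fbf-2 had a log2 fold change of 0.52 and a mean log2 IP enrichment of 0.47. Of 110 log2 fold changes of PUF genes under these alternatives, 103 kept direction and call, 4 kept only the direction and 3 changed sign. The value of a summed pair was counted for both of its members, and the sign change of fbf-2 is that of its summed pair. The pseudocount of 1 and the single replicates apply to the log2 IP enrichment and are not among the 110. Depth limits fbf-2 most, with 75 counts in the IP of replicate 2.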
